A study of Bos indicus and Bos taurus with 17 samples.

Results

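The plasmin system and the matrix proteases were followed through 9 genes in cells taken from the milk of Kashmiri and Jersey cattle: the plasminogen activators PLAU and PLAT, the receptor PLAUR, the matrix metalloproteinases MMP9 and MMP14, their inhibitors TIMP1 and TIMP2, and the membrane proteases ADAM8 and ADAM17. The genes were chosen by name and function, but with earlier results of these data known. Shares of all genes given beside them below are therefore descriptive. All 9 were found among the 21631 distinct gene names of the expression table. The 6 groups were the 2 breeds sampled at day 15, day 90 and day 250 after calving (D15, D90 and D250), which stand for early, mid and late lactation. The labels gave 3 samples for each group except Jersey at D90, which had 2, all from cows in lactation number 2 or 3. The paper instead states the 3rd lactation for all cows. It also describes 3 cows of each breed, milked at D15, D90 and D250, so that by the paper the day groups of a breed share cows. The lactation numbers of the labels differ between days within a breed, which does not match that description. By the labels the lactation numbers were not balanced. Jersey at D250 and Kashmiri at D90 had number 2 only, while Kashmiri at D15 and at D250 had mostly number 3. Every sample of a lactation stage carried the same month (March, July or December), so stage and season cannot be told apart. The cells were collected from milk with magnetic beads carrying an antibody against cytokeratin 18, the product of KRT18, and no group received a treatment.

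Plasminogen is a milk and blood protein that urokinase (PLAU) and tissue plasminogen activator (PLAT) convert to plasmin, a protease that degrades caseins in milk and, in tissue, fibrin and matrix proteins. The urokinase receptor PLAUR holds PLAU on the cell surface, and plasmin can in turn activate latent matrix metalloproteinases, which the TIMP proteins bind and block. Plasmin activity in milk is known to climb towards the end of lactation and in udder inflammation, and neutrophils and macrophages are well known sources of PLAUR, MMP9 and ADAM8.

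The values are the FPKM that the authors computed for each group, that is, sequenced fragments divided by transcript length and by the number of mapped reads. This unit corrects for transcript length and so allows levels of different genes to be compared. Each group had a single value, with no error and no number of reads beside it, so no comparison below carries a test and the spread between cows is not shown. Ratios were put on the log2 scale after 1 FPKM was added to both values. A gene was counted as higher or lower past a limit of 2 on this scale (4-fold), provided that one of the groups compared reached 1 FPKM. Fold values are plain ratios of FPKM. By quantitative PCR at D90 the paper found KRT18 and CSN2 higher in the isolated cells than in unsorted milk cells, and LSP1, HBA and CD18 lower. It also lists casein and whey protein genes among the most highly expressed in both breeds. In the values used here the labelled cell type was only partly borne out by marker genes. KRT18 lay between 1.59 and 51.3 FPKM and was lowest in Jersey at D90. The summed FPKM of the 13 epithelial markers found ran from 466 in that group to 18217 in Kashmiri at D15, of which FABP3 alone made up 10560. Markers of white blood cells were present in all 6 groups. In such mixed cells, fewer cells of a type and less RNA per cell cannot be told apart.

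All 9 genes were higher in all 3 Jersey groups than in any Kashmiri group. Among the 12342 named genes with at least 1 FPKM in any group, 15.2% showed this pattern. With FPKM rescaled to an equal sum without the milk protein genes, 7 members kept it (not PLAT and ADAM17, all genes 11.5%), and with FPKM rescaled by the upper quartile 8 did (not PLAT, all genes 11.0%). The sum of the 9 genes was 178, 336 and 277 FPKM in Kashmiri at D15, D90 and D250. In Jersey the same sum was 1857, 3139 and 7815 FPKM. PLAUR alone made up between 35.0% and 51.2% of the sum, and PLAU and PLAUR together went from 44.7% at D15 to 75.8% at D250 in Jersey. The size of the gap varied widely among members, from a log2 ratio of 0.18 for PLAT to 6.19 for PLAU at D250.

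At D15, 7 of 9 members were past the limit in Jersey over Kashmiri, and 6.45% of all genes tested were. At D90 the count was 7 against a background of 6.58%, and at D250 it was 6 against 10.9%. The members had median log2 ratios of 3.29, 2.93 and 2.65 on the 3 days, while all genes tested had medians of -0.13, -0.03 and -0.10. There were 5 members, namely PLAU, PLAUR, MMP9, TIMP1 and ADAM8, that passed the limit on every day, as did 3.05% of the 10310 genes tested on all days. No member was lower in Jersey past the limit, against 2.12%, 5.17% and 1.37% of all genes tested at D15, D90 and D250. On the scale with an equal sum, the median of all genes at D250 shifted to -0.74, and 4 members (PLAU, PLAUR, TIMP1 and ADAM8) remained past the limit on that day. On the upper quartile scale the shift was to -0.52 and 5 members passed. MMP9 at D250 was past the limit in neither case, with log2 ratios of 1.42 and 1.62.

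**Figure D1:**
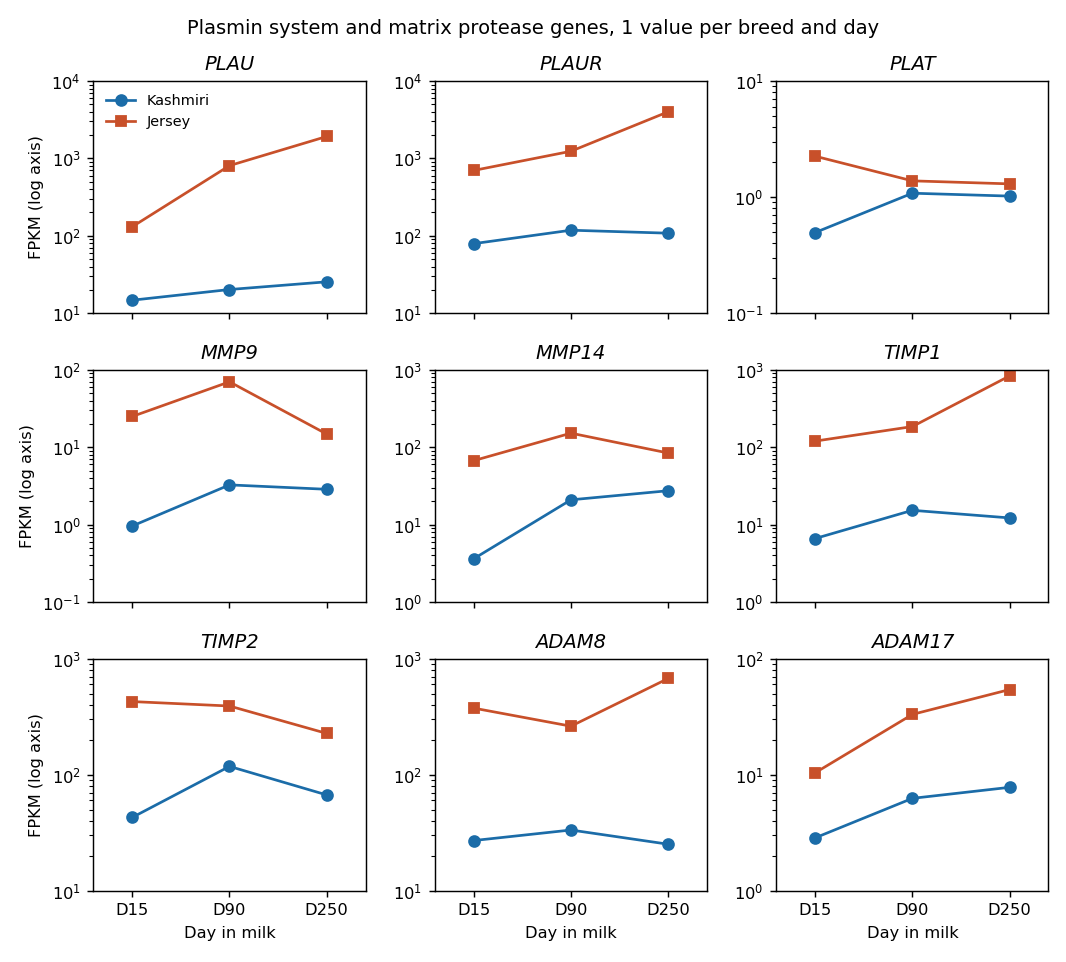
FPKM of the 9 genes (log axis, a separate scale in each panel) on days 15, 90 and 250 in milk, with circles or squares for the single value of each breed and day. In every panel the 3 Jersey values lie above the 3 Kashmiri values (on rescaled scales not for PLAT, nor for ADAM17 with an equal sum). As deposited, the gap between the breeds is wider at D250 than at D15 for PLAU, PLAUR, TIMP1, ADAM8 and ADAM17. For ADAM8 and ADAM17 the log2 gap widens by only 0.95 and 1.09. With an equal sum the median of all genes moves from -0.13 to 0.22 at D15 and from -0.10 to -0.74 at D250. The widening of these last 2 genes therefore depends on the scale.

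PLAU, which encodes urokinase, showed the widest gap between the breeds among the 9 genes at D90 and D250, while at D15 its ratio was below those of MMP9, MMP14, TIMP1, ADAM8 and TIMP2. Its level was 14.7, 20.2 and 25.4 FPKM in Kashmiri at D15, D90 and D250. In Jersey it was 131, 807 and 1921 FPKM on the same days. The lowest Jersey value was thus above the highest Kashmiri value, and the 3 Kashmiri values lay close to each other while the Jersey values spread over more than 10-fold. The ratio of Jersey to Kashmiri was 8.92-fold at D15, 40.0-fold at D90 and 75.7-fold at D250, or 3.07, 5.25 and 6.19 on the log2 scale. Within Jersey, PLAU rose 6.17-fold from D15 to D90 and 14.7-fold from D15 to D250. In Kashmiri the corresponding folds were 1.38 and 1.73, below the limit. Among all genes expressed in the data, PLAU stood at percentile 68.4 in Kashmiri at D15 and at percentile 99.5 in Jersey at D250.

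The receptor PLAUR, which anchors urokinase at the cell surface, was the most abundant member in every group except Kashmiri at D90, where TIMP2 was level with it. It measured 79.1, 118 and 108 FPKM in Kashmiri and 699, 1237 and 4002 FPKM in Jersey at D15, D90 and D250. Both breeds were lowest at D15, and the Jersey value at D250 stood apart from the 5 others. Jersey exceeded Kashmiri 8.84-fold at D15, 10.5-fold at D90 and 37.1-fold at D250 (log2 ratios 3.13, 3.38 and 5.20). From D15 to D250 PLAUR rose 5.72-fold in Jersey, whereas the Kashmiri ratio was 1.36. At D250 in Jersey it stood at percentile 99.9 of all expressed genes.

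PLAT, the activator best known for dissolving fibrin in blood, was scarce. Its levels were 0.495, 1.08 and 1.02 FPKM in Kashmiri and 2.25, 1.38 and 1.30 FPKM in Jersey. The breeds did not overlap, but the 4 groups at D90 and D250 all lay between 1.02 and 1.38 FPKM. Jersey over Kashmiri was 4.54-fold at D15, 1.28-fold at D90 and 1.27-fold at D250, with log2 ratios of 1.12, 0.19 and 0.18 after adding 1 FPKM, none past the limit. Because the value in Kashmiri at D15 was under 1 FPKM, the fold at D15 rests on very low levels. The order of the breeds at D250 turned under rescaling, with log2 ratios of -0.24 for the equal sum and -0.08 for the upper quartile. A further entry named PLAT held 0.0593, 0.0677 and 0.0466 FPKM in Kashmiri and 0.0334, 0.575 and 0.983 FPKM in Jersey. It thus rose in Jersey where the entry used fell, and it is not part of the ratios above. With the entries summed, the log2 ratio of Jersey D250 over D90 was 0.15, against -0.05 for the entry used.

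MMP9, gelatinase B, a secreted protease stored in neutrophil granules, was low in Kashmiri, at 0.960, 3.26 and 2.86 FPKM on D15, D90 and D250. In Jersey it was 25.0, 70.1 and 14.8 FPKM. The Jersey values peaked at D90 and were lowest at D250, and even the lowest lay above every Kashmiri value. The ratio of the breeds was 26.1-fold at D15, 21.5-fold at D90 and 5.19-fold at D250 (log2 ratios 3.73, 4.06 and 2.04). The last of these sat just past the limit. MMP9 was the sole member that fell past the limit between days, with 0.212 of its D90 level left in Jersey at D250. A further entry named MMP9 held at most 0.664 FPKM.

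MMP14, a protease fixed in the cell membrane that can activate other metalloproteinases, measured 3.62, 20.9 and 27.4 FPKM in Kashmiri and 67.1, 152 and 84.2 FPKM in Jersey. Kashmiri at D15 was far below the 5 other groups, and the breeds did not overlap. Jersey exceeded Kashmiri 18.5-fold at D15 (log2 ratio 3.88) and 7.28-fold at D90 (2.81), and the ratio at D250 was 3.07-fold (1.58), short of the limit. MMP14 was the only member past the limit between days in Kashmiri, where it rose 5.76-fold from D15 to D90 and 7.57-fold from D15 to D250. In Jersey its ratios between the same days were 2.26 and 1.26.

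TIMP1, a secreted inhibitor of most matrix metalloproteinases, had levels of 6.61, 15.3 and 12.2 FPKM in Kashmiri and 120, 185 and 835 FPKM in Jersey. All Kashmiri values were below 20 FPKM and all Jersey values above 100 FPKM, with Jersey at D250 highest by a wide margin. Jersey was higher 18.1-fold at D15, 12.1-fold at D90 and 68.2-fold at D250 (log2 ratios 3.99, 3.51 and 5.98). In Jersey TIMP1 rose 4.50-fold from D90 to D250 and 6.97-fold from D15 to D250. The first of these rises was at log2 2.16 as deposited and dropped under the limit on both rescaled scales, at 1.75 and 1.91. In Kashmiri the same ratios were 0.798 and 1.85.

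TIMP2, which both inhibits metalloproteinases and, with MMP14, takes part in activating the gelatinase MMP2, measured 42.9, 118 and 67.0 FPKM in Kashmiri and 427, 391 and 227 FPKM in Jersey. The Jersey value was lowest at D250 and the Kashmiri value lowest at D15, so that the breeds lay nearer to each other later. The small step from D15 to D90 in Jersey (log2 ratio -0.13) turned to 0.14 and 0.02 on the rescaled scales. Jersey over Kashmiri was 9.96-fold at D15 (log2 ratio 3.29). At D90 and D250 the ratios were 3.32-fold and 3.39-fold, both short of the limit, although on the scale with an equal sum the log2 ratio at D90 was 2.07 and past it. MMP2 itself was near the bottom of the scale, at no more than 0.0257 FPKM in any group.

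ADAM8, a membrane protease of white blood cells that sheds adhesion molecules, was at 27.1, 33.4 and 25.2 FPKM in Kashmiri and 375, 262 and 675 FPKM in Jersey. The Kashmiri values were nearly level, while the Jersey values dipped at D90 and were highest at D250. The breed ratio was 13.8-fold at D15, 7.84-fold at D90 and 26.8-fold at D250 (log2 ratios 3.74, 2.93 and 4.69). No change of ADAM8 between days passed the limit in either breed.

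ADAM17, the enzyme that releases tumour necrosis factor and several growth factors and receptors from the cell surface, was at 2.86, 6.26 and 7.79 FPKM in Kashmiri and 10.4, 33.1 and 54.2 FPKM in Jersey. It was lowest at D15 and highest at D250 in both breeds. Jersey over Kashmiri was 3.64-fold at D15, short of the limit, 5.29-fold at D90 and 6.96-fold at D250 (log2 ratios 1.56, 2.23 and 2.65). From D15 to D250 ADAM17 rose 5.20-fold in Jersey, and the Kashmiri ratio was 2.72. On the scale with an equal sum the breed ratio at D250 was 1.95, just below the limit.

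**Figure D2:**
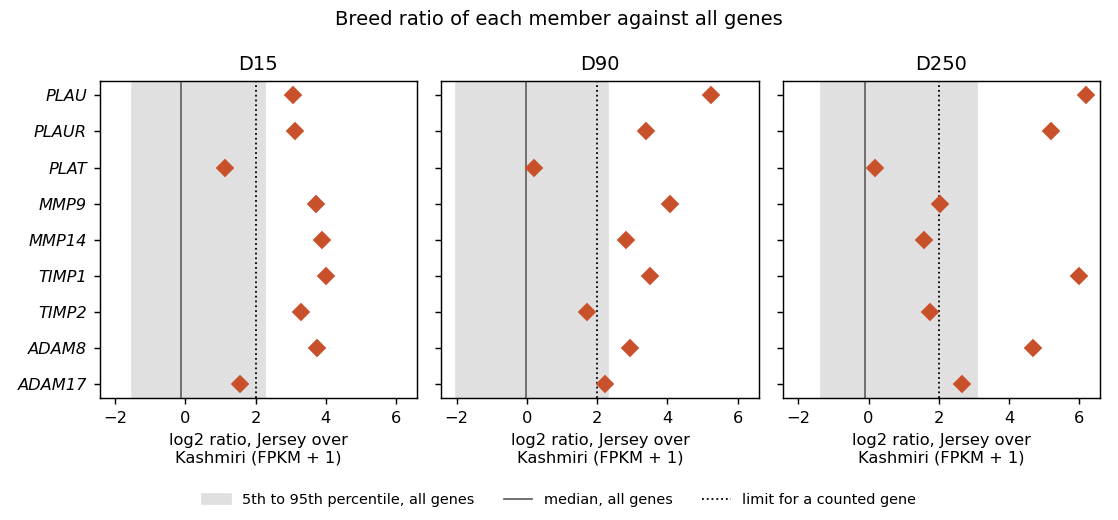
Log2 ratio of Jersey over Kashmiri (FPKM + 1) for each member at D15, D90 and D250, with diamonds for the members, a grey band for the 5th to 95th percentile of all genes tested, a line for their median and a dotted line at the limit of 2. At D250 PLAU (6.19), TIMP1 (5.98), PLAUR (5.20) and ADAM8 (4.69) lie beyond the upper edge of the band, while PLAT (0.18) lies inside it on that day.

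Between days, few members passed the limit. In Kashmiri, MMP14 was the single member to rise from D15 to D90, where 2.34% of all genes rose past the limit, and again from D15 to D250, where 1.85% did. No member passed from D90 to D250 in Kashmiri, against 0.859% of all genes that rose and 1.12% that fell past it. In Jersey, PLAU alone rose from D15 to D90 (background 2.98%). From D90 to D250 TIMP1 rose (background 3.72%) and MMP9 fell (background 0.466%). From D15 to D250, 4 of 9 members rose in Jersey, namely PLAU, PLAUR, TIMP1 and ADAM17, while 9.17% of all genes did. The remaining 5 had log2 ratios from -0.91 (TIMP2) to 0.85 (ADAM8).

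The direction between D15 and D250 was not shared by all members of a breed. In Kashmiri 8 of 9 log2 ratios were above 0, the exception being ADAM8 at -0.10, which turned to 0.87 and 0.16 on the rescaled scales. In Jersey 6 of 9 were above 0, and PLAT (-0.50), MMP9 (-0.72) and TIMP2 (-0.91) were below. The fall of PLAT holds only for the entry used, as its further entry went from 0.0334 to 0.983 FPKM in Jersey. MMP9 and TIMP2 lay on opposite sides of 0 in the breeds, with log2 ratios of 0.98 and 0.63 in Kashmiri. Relative to Kashmiri, the log2 change from D15 to D250 in Jersey was lowest for MMP14 (-2.30), followed by MMP9 (-1.70) and TIMP2 (-1.54), and was highest for PLAU (3.11). These differences between breeds in the change over lactation were not tested.

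**Figure D3:**
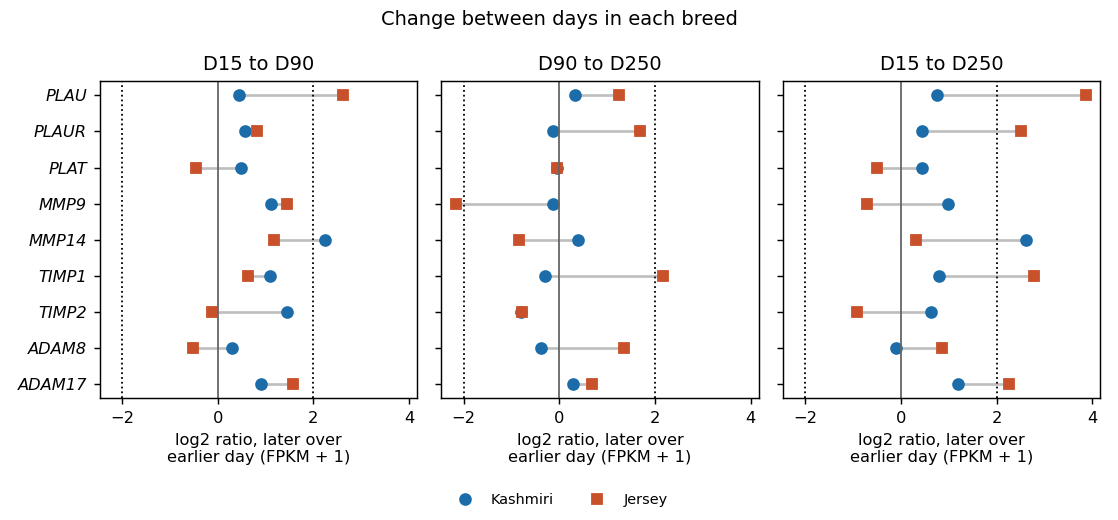
Log2 ratio of the later over the earlier day (FPKM + 1) of each member in Kashmiri (circles) and Jersey (squares), joined by a grey line, for D90 over D15, D250 over D90 and D250 over D15. From D15 to D250 the Jersey squares of PLAU (3.87), TIMP1 (2.79), PLAUR (2.52) and ADAM17 (2.27) lie beyond 2, as does the Kashmiri circle of MMP14 (2.62).

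Ratios of FPKM between members of the same group do not depend on how the groups were scaled. The activator was scarcer than its receptor throughout. PLAU over PLAUR was 0.185, 0.172 and 0.235 in Kashmiri and 0.187, 0.653 and 0.480 in Jersey at D15, D90 and D250. The breeds had nearly the same ratio at D15, and Jersey had the higher one on the later days. PLAU over PLAT was 29.6, 18.6 and 24.8 in Kashmiri and 58.2, 584 and 1478 in Jersey. PLAU was thus the more abundant activator gene in each group. The ratio takes only the PLAT entry with the highest mean (1.30 FPKM in Jersey at D250), and the further entry held 0.983 FPKM there.

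Among the metalloproteinases and inhibitors, MMP9 over TIMP1 was 0.145, 0.213 and 0.233 in Kashmiri and 0.209, 0.378 and 0.0178 in Jersey. Jersey had both the highest ratio, at D90, and the lowest, at D250. MMP14 over TIMP2 was 0.0844, 0.177 and 0.409 in Kashmiri and 0.157, 0.389 and 0.370 in Jersey, lowest at D15 in both breeds. TIMP1 over TIMP2 stayed between 0.130 and 0.183 in Kashmiri and went from 0.280 at D15 and 0.474 at D90 to 3.67 at D250 in Jersey, the only group with more TIMP1 than TIMP2. ADAM8 over ADAM17 was 9.46, 5.34 and 3.24 in Kashmiri and 36.0, 7.91 and 12.5 in Jersey. ADAM8 exceeded ADAM17 in each group, most of all at D15 in Jersey.

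**Figure D4:**
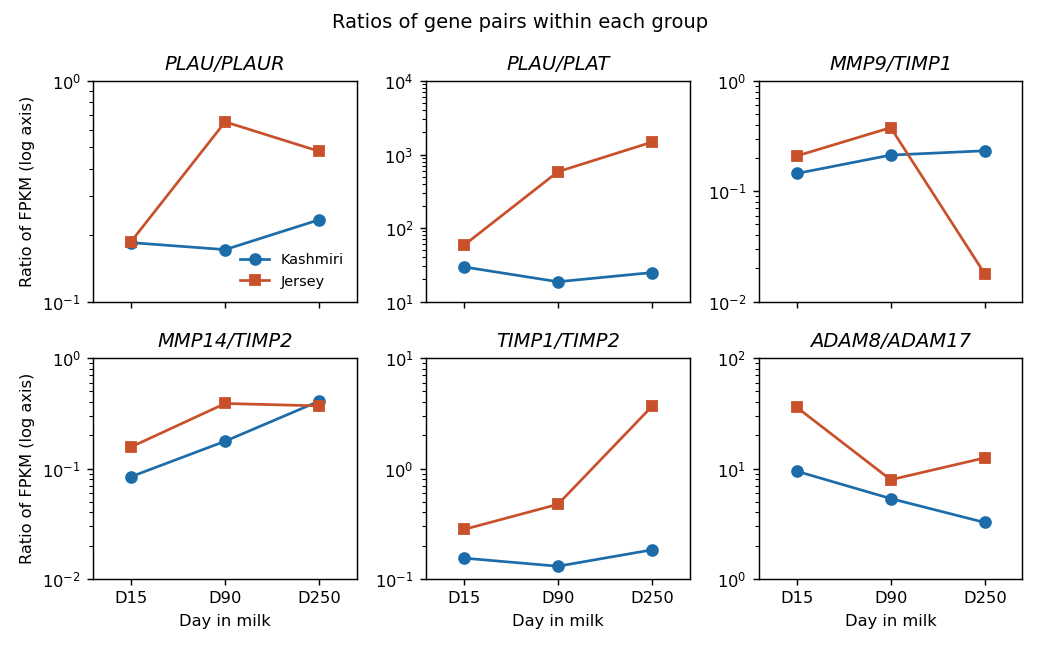
Ratio of the FPKM of a pair of genes within each group (log axis, a separate scale in each panel) on days 15, 90 and 250 in milk, with circles for Kashmiri and squares for Jersey. In Jersey at D250 the ratio of PLAU to PLAT (entry with the highest mean) is 1478. The ratio of TIMP1 to TIMP2 reaches 3.67 while that of MMP9 to TIMP1 is at 0.0178.

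Other genes of the plasmin system were counted from a list of 15, of which 12 were found by name and 9 reached 1 FPKM in a group. PLG, the gene of plasminogen, was not found under that name. Past the limit in Jersey over Kashmiri were 3 genes at D15, all higher. At D90 there were 2 higher and 1 lower, and at D250 there were 1 higher and 1 lower. Of all genes tested, 6.45%, 6.58% and 10.9% were higher on these days and 2.12%, 5.17% and 1.37% lower. The count of higher genes at D250 was thus near the share of all genes. On the upper quartile scale 2 were higher at D15, 1 was at D90, and 2 were lower at D250. On the scale with an equal sum 3 were lower at D250. The list's median log2 ratio was 0.27, 0.51 and -0.03, and at D250 it went to -0.79 and -0.65 on the rescaled scales, along with the shift of all genes. ANXA2, which with S100A10 forms a binding site for plasminogen on cells, was the most abundant, with 335, 301 and 437 FPKM in Kashmiri and 636, 560 and 430 FPKM in Jersey, and did not pass the limit on any day. S100A10 passed it narrowly at D15 (4.08-fold, log2 ratio 2.01). PLGRKT, a plasminogen receptor, stayed between 26.4 and 41.3 FPKM in all groups. LRP1, an endocytic receptor for proteases bound to their inhibitors, passed it at D15 and D90 (16.8-fold and 4.62-fold). The other genes behind the counts as deposited, named after their values were seen, were A2M and SERPINE2. A2M, a broad protease inhibitor, passed on all 3 days (28.0-fold, 33.4-fold and 19.8-fold), and SERPINE2 is an inhibitor of thrombin and other serine proteases. SERPINE2 was the lower gene, at 2.92, 2.34 and 1.86 FPKM in Jersey against 9.31, 51.1 and 12.4 FPKM in Kashmiri.

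Of 20 other metalloproteinase and inhibitor genes, 16 were found and 11 of these stayed under 1 FPKM in every group, MMP2, MMP7, MMP8 and MMP13 among them. Counts in Jersey over Kashmiri were 2 higher at D15, 1 higher and 1 lower at D90, and again 1 higher and 1 lower at D250. Of all genes tested, 6.45%, 6.58% and 10.9% were higher on these days and 2.12%, 5.17% and 1.37% lower. MMP19 measured 10.2, 147 and 160 FPKM in Kashmiri and 236, 386 and 177 FPKM in Jersey. Like MMP14, it was lowest in Kashmiri at D15 and differed most between breeds on that day (23.2-fold). MMP25, a membrane metalloproteinase first described in white blood cells, was at 6.22, 4.43 and 4.35 FPKM in Kashmiri and 38.1, 111 and 464 FPKM in Jersey, and was past the limit on all 3 days, by 107-fold at D250. TIMP3, the inhibitor that stays bound to the matrix and also blocks ADAM17, ran the other way from TIMP1 and TIMP2. It was at 25.6, 46.8 and 22.2 FPKM in Kashmiri and 12.1, 2.88 and 4.43 FPKM in Jersey, and was past the limit as lower at D90 (log2 ratio -3.62) and D250 (-2.09). BSG, which encodes an inducer of metalloproteinases, was nearly equal in the breeds on the scale as deposited, at 230, 161 and 102 FPKM in Kashmiri and 236, 162 and 98.9 FPKM in Jersey. Its log2 ratio at D250, -0.04, went to -0.80 and -0.53 on the rescaled scales.

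Of 14 other ADAM, ADAMTS and iRhom genes, all found, 8 reached 1 FPKM. Of those tested, 2, 3 and 2 were higher in Jersey at D15, D90 and D250, with none lower, against 6.45%, 6.58% and 10.9% of all genes. The count at D15 was 3 on the scale with an equal sum and 1 on the upper quartile scale. ADAM19 was the most abundant, at 1.83, 2.76 and 3.61 FPKM in Kashmiri and 18.7, 24.4 and 267 FPKM in Jersey, and rose 10.9-fold in Jersey from D90 to D250. RHBDF2, which encodes the iRhom2 partner that brings ADAM17 to the cell surface, was at 7.25, 6.88 and 8.95 FPKM in Kashmiri and 30.0, 39.4 and 66.6 FPKM in Jersey. It passed the limit at D90 (5.72-fold) and D250 (7.44-fold), and had a log2 ratio of 1.91 at D15, which went to 2.25 on the scale with an equal sum. ADAM10, the protease most closely related to ADAM17, stayed between 6.12 and 15.1 FPKM in all groups, and ADAM9 between 4.32 and 17.5 FPKM.

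Genes whose products ADAM17 is known to release from cells numbered 11 found of 12 listed. All Jersey values lay above all Kashmiri values for 8 of the 11, and for 15.2% of all genes. In Jersey over Kashmiri 8 were higher at D15, 6 at D90 and 8 at D250, with none lower. Of all genes tested, 6.45%, 6.58% and 10.9% were higher on these days. The median log2 ratio was 2.11, 2.20 and 3.01. On the scale with an equal sum the medians were 2.36, 2.43 and 2.30 with 6 genes past the limit at D250, and on the upper quartile scale 6 were past it at D15 and 7 at D250. The most abundant were the tumour necrosis factor receptors TNFRSF1B and TNFRSF1A, the adhesion molecule ICAM1 and the macrophage receptor CSF1R. ICAM1 was at 4.30, 10.6 and 8.88 FPKM in Kashmiri and 30.2, 913 and 487 FPKM in Jersey, and TNFRSF1A was at 31.5, 24.0 and 30.3 FPKM against 220, 274 and 851 FPKM. CSF1R is also on the list of macrophage markers, so these counts are not separate from those of the marker lists.

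Genes of matrix proteins, which are among the targets of plasmin and metalloproteinases, were mostly low. Of 14 matrix genes, all found, 8 stayed under 1 FPKM in every group, and the fibrillar collagens COL1A1, COL1A2 and COL3A1 did not exceed 0.0477 FPKM. In Jersey over Kashmiri 1 of 4, 2 of 5 and 3 of 6 genes tested were higher at D15, D90 and D250, with none lower. Of all genes tested, 6.45%, 6.58% and 10.9% were higher. On the scale with an equal sum the count at D15 was 2. VCAN, the proteoglycan versican, was the highest, at 0.482, 0.958 and 2.94 FPKM in Kashmiri and 4.76, 48.7 and 200 FPKM in Jersey. FN1, fibronectin, was at 2.02, 2.58 and 13.5 FPKM in Kashmiri and 13.1, 9.33 and 26.1 FPKM in Jersey. Of 6 further neutrophil granule genes, 4 were found. ELANE, neutrophil elastase, was at 1.16, 0.299 and 0.293 FPKM in Kashmiri and 7.63, 16.5 and 5.95 FPKM in Jersey, and PRTN3, proteinase 3, was under 1 FPKM in Kashmiri and at 0.372, 5.09 and 1.29 FPKM in Jersey.

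Markers of neutrophils were higher in Jersey, as the members were. Of the 11 listed, 7 were found, and CXCR1, CXCR2, FPR1 and FCGR3A were not found by name. Their summed FPKM was 184, 479 and 619 in Kashmiri and 4808, 5710 and 13450 in Jersey. All 7 had every Jersey value above every Kashmiri value, as did 15.2% of all genes. Past the limit as higher were 6 of 7 at D15, 6 of 7 at D90 and 6 of 6 tested at D250. Of all genes tested, 6.45%, 6.58% and 10.9% were higher on these days. The markers had median log2 ratios of 3.03, 3.90 and 4.48. MPO, with the lowest ratio at D15 (0.69), was not tested at D250, so the last median is not of the same genes. From D15 to D250 the log2 ratios of S100A8, S100A9 and S100A12 went from 5.47, 5.20 and 5.33 down to 4.83, 4.78 and 3.77. Those of CSF3R, TLR2 and IL1R2 went from 2.50, 3.03 and 2.93 up to 5.45, 4.17 and 3.87. On the scale with an equal sum the medians were 3.37, 4.25 and 3.73, so that the highest stood at D90 instead of D250, and the counts were the same. MPO, the gene of the defining enzyme of their granules, stayed between 0.255 and 2.80 FPKM. The summed macrophage markers were 139, 543 and 557 FPKM in Kashmiri and 1241, 2279 and 2006 FPKM in Jersey, with 9, 4 and 1 of 11 past the limit as higher and median log2 ratios of 3.51, 1.21 and 0.10, the last of which turned to -0.53 and -0.30 on the rescaled scales. The 13 epithelial markers were lower in Jersey past the limit in 2, 5 and 2 cases, where 2.12%, 5.17% and 1.37% of all genes tested were. The cases were 1, 4 and 5 on the scale with an equal sum, and 2, 7 and 3 on the upper quartile scale. The part of these cell types in the differences of the 9 genes was not tested.

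Other marker lists moved less or in another direction. The sum of the 10 T and NK cell markers was 1455, 3028 and 499 FPKM in Kashmiri and 820, 1872 and 261 FPKM in Jersey, lower in Jersey on each day. CCL5, a chemokine gene, made up 1649 FPKM of the Kashmiri sum and 1710 FPKM of the Jersey sum at D90. The median log2 ratio of the list was -0.46, -2.33 and -1.55, with 0, 6 and 1 genes lower past the limit, among them CD3E at D90 (-4.34). Of all genes tested, 2.12%, 5.17% and 1.37% were lower on these days. At D250 the count went to 5 of 9 on the scale with an equal sum and to 4 on the upper quartile scale. The sum of the 8 B and plasma cell markers lay between 9.09 and 84.5 FPKM. The 5 markers shared by white blood cells summed to 564, 1264 and 547 FPKM in Kashmiri and 1681, 1647 and 2345 FPKM in Jersey. On each day 1 was higher past the limit, where 6.45%, 6.58% and 10.9% of all genes tested were. The counts were 3, 1 and 1 on the scale with an equal sum, and 1, 0 and 1 on the upper quartile scale. The 3 red blood cell markers found were under 1 FPKM in every group, and the fibroblast and endothelial markers summed to at most 23.4 FPKM.

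**Figure D5:**
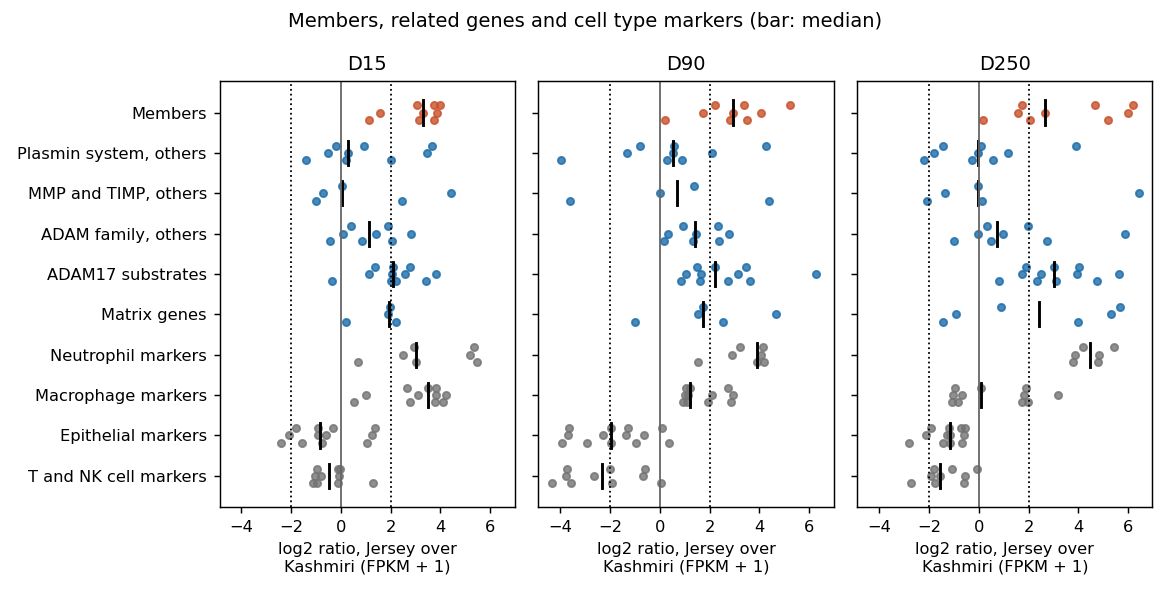
Log2 ratio of Jersey over Kashmiri (FPKM + 1) at D15, D90 and D250 for each gene of the lists (points) with the median of each list (bar). The members have medians of 3.29, 2.93 and 2.65, the neutrophil markers 3.03, 3.90 and 4.48, and the macrophage markers go from 3.51 at D15 to 0.10 at D250 (-0.53 and -0.30 on the rescaled scales). The neutrophil median at D250 is without MPO, which was not tested on that day.

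Relative to the summed neutrophil markers of the same group, the members did not stay at a fixed level. PLAU was 7.97%, 4.21% and 4.10% of that sum in Kashmiri and 2.72%, 14.1% and 14.3% in Jersey, which is 0.341, 3.36 and 3.48 times the Kashmiri share at D15, D90 and D250. For PLAUR the same quotients were 0.338, 0.882 and 1.71, and for TIMP1 they were 0.692, 1.01 and 3.14. PLAU, PLAUR and TIMP1 were thus lower in Jersey per unit of this sum at D15 and higher at D250. The sum rests mostly on S100A8, S100A9 and S100A12, with breed ratios of 45.4-fold, 38.2-fold and 41.4-fold at D15. On that day TLR2 was at 9.24-fold, IL1R2 at 7.91-fold, CSF3R at 5.76-fold and MPO at 2.77-fold. PLAU (8.92-fold), PLAUR (8.84-fold) and TIMP1 (18.1-fold) exceeded the last of these, from IL1R2 on. At D250 CSF3R was at 44.6-fold, above PLAUR (37.1-fold). MMP9 had quotients of 0.997, 1.80 and 0.239, and TIMP2 of 0.381, 0.279 and 0.156. Relative to the macrophage markers, PLAU had quotients of 0.996, 9.54 and 21.0 and MMP14 of 2.07, 1.74 and 0.853. Relative to the markers shared by white blood cells, PLAU (3.00), PLAUR (2.97) and TIMP1 (6.07) were above 1 already at D15. On the later days these quotients were 30.7 and 17.7 for PLAU, 8.07 and 8.67 for PLAUR, and 9.28 and 15.9 for TIMP1. At D250 PLAT (0.296), MMP14 (0.717) and TIMP2 (0.792) were below 1 by that list. These quotients carry no error, and which of them exceeded 1 differed between the marker lists.

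The genes whose 6 values followed each member most closely were sought among 7110 named genes with at least 1 FPKM in all groups, by the root mean square difference of log2(FPKM + 1) after removing each gene's mean. For PLAU they were PSTPIP2 (0.16), NAIP (0.24) and DUSP6 (0.31). PSTPIP2 measured 2.55, 3.13 and 5.41 FPKM in Kashmiri and 22.0, 186 and 422 FPKM in Jersey. For PLAUR they were TRIB1 (0.22), PPP1R3B (0.27) and E2F2 (0.28), and for TIMP1 they were UPP1 (0.32), PPP1R3B (0.33) and NFE2 (0.34). PPP1R3B was the single gene near more than 1 member.

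MMP14 followed CSF1R (0.19), CTSC (0.27) and SLC15A3 (0.29), and CSF1R, a receptor of macrophages, measured 3.90, 18.9 and 31.5 FPKM in Kashmiri and 68.5, 130 and 106 FPKM in Jersey. TIMP2 was closest to TNFAIP8L2 (0.17), CTSZ (0.26) and GPC1 (0.27). The best matches of MMP9 were CTSH (0.41), EMP3 (0.42) and HLX (0.50). In Kashmiri at D15 MMP9 (0.960 FPKM) and PLAT (0.495 FPKM) were under the 1 FPKM asked of the candidates. Genes that low in that group were thus not searched. ADAM8 was closest to SDSL (0.28), LTB4R (0.30) and RAB20 (0.36), and ADAM17 to PLAGL2 (0.23), FAM49A (0.24) and RAB5C (0.24). PLAT, with its narrow range, lay near BAG3 (0.11), BHLHE41 (0.13) and POLRMT (0.14). With 6 values that share 2 breeds and 3 days, such likeness is a description of these groups.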

How the data were processed

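RNA of milk epithelial cells from Kashmiri and Jersey cows was sequenced by the authors from stranded mRNA libraries. Per the study's methods and the labels, reads were trimmed (Trimmomatic), aligned to the bovine assembly UMD3.1 (Bowtie2, TopHat) and quantified with Cufflinks and Cuffdiff. The deposited table holds the authors' FPKM, 1 value per gene for each of the 6 groups. Values per library, the reads per library that the study lists and the authors' own tests were not used here. Depth per value is not in the table, so no interval or test was computed. Columns headed as the local breed were read as Kashmiri, the sole other breed in the labels, and lactation stages 1, 2 and 3 as D15, D90 and D250.

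For each of 9 comparisons (3 pairs of days in each breed, Jersey over Kashmiri on each day), log2 ratios with a pseudocount of 1 FPKM were computed over all named genes with at least 1 FPKM in either group. The entry with the highest mean was used for a repeated name. All 9 members were tested in every comparison, although PLAT and MMP9 passed the FPKM filter in some of them only through the group where they were higher. Named in the text were all members, at most 4 genes of each list by mean FPKM, and the 3 nearest profiles of each member. Genes outside this rule (A2M, SERPINE2, several genes under 1 FPKM and single markers) were named after their values were seen. Some genes of these lists are not reported here and were left out of their counts and sums. Members and lists were chosen with earlier results of these data known. The code was tested on simulated data. Alternatives were a pseudocount of 0.1, no filter, a log2 limit of 1, FPKM rescaled by their upper quartile or to an equal sum leaving out milk protein genes, and summed entries of a name. Tables were computed with pandas 2.3.3 and numpy 2.4.6 in Python 3.11.15, and figures drawn with matplotlib 3.10.9.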

Additional observations from a re-analysis of the deposited data

Results flagged for a closer look

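MMP9 and TIMP2 moved in opposite directions in the breeds between D15 and D250, by at least 1.5-fold in each. The log2 ratio of MMP9 was 0.98 in Kashmiri and -0.72 in Jersey, so that the change in Jersey was -1.70 relative to Kashmiri. For TIMP2 the log2 ratios were 0.63 in Kashmiri and -0.91 in Jersey, a difference of -1.54. None of these 4 changes reached the 4-fold limit, and the difference between the breeds was not tested because each group had a single value.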

How the results depend on the processing

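No member's log2 ratio past the limit changed its sign under any alternative. Lowering the log2 limit to 1 gave 4 members in Kashmiri D90 over D15, 2 in Kashmiri D250 over D15, 4 in Jersey D90 over D15 and 5 in Jersey D250 over D90. In the same order, 33.5%, 25.7%, 29.8% and 20.9% of all genes tested were past that lower limit in either direction. With FPKM rescaled to an equal sum without the milk protein genes, Kashmiri D250 over D15 had 2 members past the limit (MMP14 and ADAM17) and a members' median of 1.63 while the median of all genes was 0.81, Jersey D250 over D90 had 1 member (MMP9, without TIMP1), and the median of Jersey over Kashmiri at D250 was 1.95. The upper quartile also left 1 member in Jersey D250 over D90. Of all genes tested, 7.73% in Kashmiri D250 over D15 and 3.11% in Jersey D250 over D90 were past the limit with an equal sum. With the upper quartile 3.29% were in Jersey D250 over D90. Of 405 single ratios recomputed, 380 stayed within 0.58 of the reported log2 value and 13 changed sign, all of them ratios below the limit. Those that moved did so on the scale with an equal sum, except PLAT (1.98) and MMP9 (4.57) in Jersey over Kashmiri at D15 with a pseudocount of 0.1, where Kashmiri was under 1 FPKM. No paired analysis was possible because each group has a single value and no test was made, and for the same reason no replicate could be left out. Depth and the spread between cows limit every ratio and were not assessed here, and an analysis within batches was not possible.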
